A study of Mus musculus with 6 samples.

Results

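Glypicans and syndecans are the main families of heparan sulphate proteoglycans at the cell surface, and their 10 mouse genes were followed here in bulk RNA sequencing of the embryonic retina. The members are the 6 glypican genes Gpc1 to Gpc6 and the 4 syndecan genes Sdc1 to Sdc4, found by name among 55487 genes in the count table. They were chosen by family membership with the Gpc3 level per library, in labelled cKO against labelled control, already known, so the genotype values of the members are a description. Where the text says on which side of the threshold a member fell in the fit over all genes, that places the member and supports nothing. Of the 10, 9 passed the filter on low counts, and Gpc5 did not.

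Glypicans are tethered to the outer membrane leaflet by a lipid anchor, whereas syndecans cross the membrane and end in a short cytoplasmic tail. Both carry heparan sulphate, a long sulphated sugar chain that binds Hedgehog, Wnt, FGF and BMP proteins and so shapes how far these signals travel and how strongly cells receive them. In the embryonic retina, heparan sulphate is known to act in optic fissure closure, in progenitor growth and in the guidance of ganglion cell axons.

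The series compared C57BL/6 littermates at embryonic day 16.5. The control animals were Foxp1 fl/fl, with loxP-flanked Foxp1 and no Cre, and the conditional knockout (cKO) animals were Foxp1 fl/fl with Six3-Cre, a Cre recombinase under Six3 sequence that is active in the developing retina and ventral forebrain. Both groups thus carried the floxed alleles, and Cre was present in the cKO alone. There were 3 libraries per group, each from both retinas of 1 animal, and totals ran from 23707761 to 25714620 counts. Whole retina was used, so for every gene here fewer cells expressing it and less RNA per cell cannot be told apart.

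The labels are in doubt, and groups are therefore named as labelled. Foxp1, the targeted transcription factor, had 1213, 1019 and 1096 counts in the control-labelled libraries 1 to 3 and 1850, 1816 and 1742 in cKO-labelled libraries 1 to 3. It was thus higher where deletion is labelled, while the authors' deposited table lists it at a log2 fold change of -0.60 for cKO against control. Of the 9 tested members, 9 had the opposite sign in that table as well. The sex-linked genes Xist and Ddx3y went against the labelled sex in the libraries labelled control 2 and cKO 2. By these genes the control-labelled libraries 1 to 3 read as female, male and male, the sexes labelled for cKO 1 to 3. The cKO-labelled libraries 1 to 3 read as female, female and male, the sexes labelled for control 1 to 3. Exchanging the 2 groups would match the labelled sex of all 6 libraries and the deposited signs of Foxp1 and the tested members. Each direction between groups given here would then be reversed. Whether the labels were exchanged was not tested. Of the retinal progenitor markers, Fgf15 was at 787 to 911 CPM and Pax6 at 634 to 680 CPM over the 6 libraries, and Rax, Six6, Sox2 and Lhx2 were also far from zero in each. CPM is the usual depth-scaled count, here over TMM-scaled library sizes.

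The upstream sequences of 3 members are shown because they cover the member that differed most (Gpc3), 1 of the 2 with the highest levels (Sdc3) and the one near zero (Gpc5). Each is the 250 bases before the RefSeq start in build GRCm38.p6, 5′ to 3′ on the gene's strand. Capitals mark the forkhead core GTTTAC, here as its reverse complement GTAAAC, which was looked for because Foxp1 is a forkhead factor.
Gpc3: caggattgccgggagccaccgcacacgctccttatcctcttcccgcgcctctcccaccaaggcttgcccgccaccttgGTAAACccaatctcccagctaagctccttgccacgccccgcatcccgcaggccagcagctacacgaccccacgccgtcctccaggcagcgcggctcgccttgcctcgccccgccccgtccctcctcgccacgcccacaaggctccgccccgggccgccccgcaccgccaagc
Sdc3: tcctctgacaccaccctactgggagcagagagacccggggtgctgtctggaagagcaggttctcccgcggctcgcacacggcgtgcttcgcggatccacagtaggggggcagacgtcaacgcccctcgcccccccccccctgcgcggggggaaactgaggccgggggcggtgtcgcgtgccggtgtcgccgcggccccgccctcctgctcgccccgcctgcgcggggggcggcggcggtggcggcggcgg
Gpc5: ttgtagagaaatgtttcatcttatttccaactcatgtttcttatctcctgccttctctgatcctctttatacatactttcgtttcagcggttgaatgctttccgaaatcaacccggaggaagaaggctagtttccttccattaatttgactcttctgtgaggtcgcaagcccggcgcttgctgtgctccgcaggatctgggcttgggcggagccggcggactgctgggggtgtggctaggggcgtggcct

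These windows lie at chrX:52613975-52614224 (minus strand), chr4:130792287-130792536 (plus strand) and chr14:115091965-115092214 (plus strand). The Gpc3 and Sdc3 windows are rich in CpG dinucleotides, with 25 and 32 of them, against 12 for Gpc5 and a median of 6 over 32851 windows of the same length. Windows were found for 7 of the 10 members (Gpc2, Gpc3, Gpc4, Gpc5, Sdc1, Sdc3 and Sdc4). On both strands, GTTTAC occurred once in the Gpc3 window and in none of the other members' windows, and 6.92% of all windows held it. The longer form TGTTTAC, which contains GTTTAC, was in none of the 7 and in 3.17% of all windows. Both motifs were chosen after these sequences had been seen.

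Levels were compared between genes as CPM per kilobase of exon, and 9 of the 10 members were clearly expressed. The plot of levels by library shows 2 genes at the top. Sdc3, the syndecan of developing neurons and axons (chromosome 4, 130792537 to 130826319, plus strand), was at 41.7 ± 0.81 CPM per kilobase (SD, n = 3) in control-labelled libraries and 39.3 ± 2.40 (SD, n = 3) in cKO-labelled ones. Gpc1, a glypican of developing neurons and their axons (chromosome 1, 92831645 to 92860779, plus strand), was at 39.9 ± 0.59 and 39.3 ± 1.39 CPM per kilobase (SD, n = 3 each). The ranges of these top genes overlapped over the 6 libraries, so their order is not fixed. Antisense partners share exon bases with both, 977 bases of Ankmy1 with Gpc1 and 415 bases of Gm26716 and 48 of Gm12970 with Sdc3. These partners had 80, 3 and 1 counts over all libraries.

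Gpc3 came next at 32.6 ± 0.58 CPM per kilobase (SD, n = 3) in control-labelled libraries. In cKO-labelled libraries it was at 17.7 ± 0.84 CPM per kilobase (SD, n = 3), a level that its neighbour Gpc4 also had there (16.9 ± 1.14, SD, n = 3). Gpc2, known as cerebroglycan and found in neurons as they extend axons, and Sdc1, the classical epithelial syndecan, followed with overlapping ranges of 12.3 to 15.99 and 11.95 to 14.3 CPM per kilobase over the 6 libraries. Sdc4, the widespread syndecan of focal adhesions, ranged from 7.64 to 9.65 CPM per kilobase.

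The lowest of the expressed members were Sdc2 and Gpc6. Sdc2, a syndecan known from mesenchyme and from dendritic spines, ranged from 5.91 to 7.39 CPM per kilobase and Gpc6 from 5.30 to 6.58, so these overlapped. Gpc5 had 4, 8 and 1 counts in control-labelled libraries and 3, 4 and 2 in cKO-labelled ones. That is 0.01 to 0.07 CPM per kilobase. As a count of 0 would allow up to 3 counts, these values lie near the floor. Gpc5 did not pass the filter on low counts, so no fold change is given for it.

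**Figure D1:**
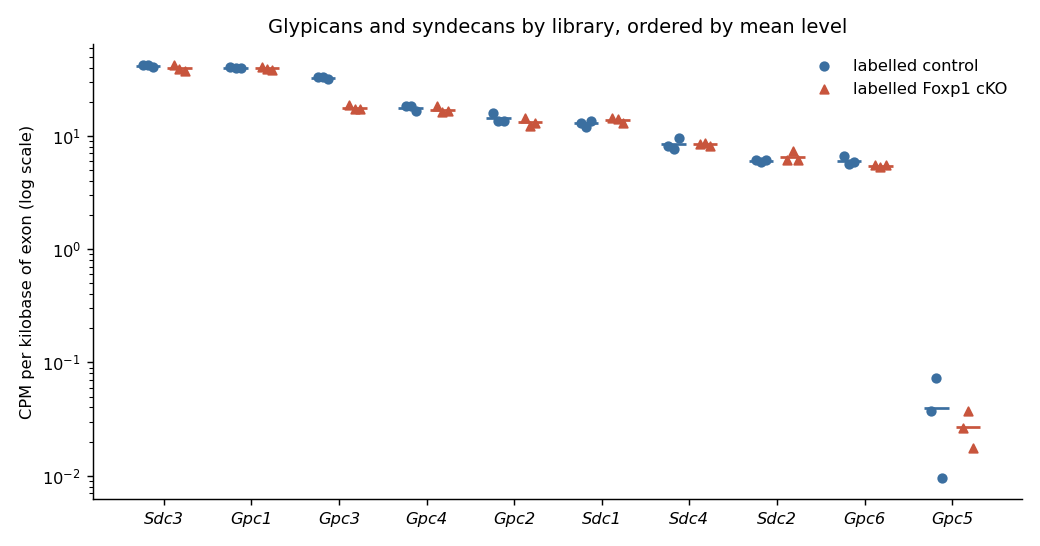
CPM per kilobase of exon (log axis) of the 10 members in each library; points are libraries (circles labelled control, triangles labelled Foxp1 cKO) and bars are group means of 3. Gpc3 is the gene whose groups stand furthest apart among those expressed, at means of 32.6 and 17.7, and Gpc5 lies far below all others.

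Gpc3 was the 1 member that passed the threshold of the fit over all genes (edgeR quasi-likelihood, Benjamini-Hochberg adjusted p under 0.05), and it was lower in cKO-labelled libraries. That is 1 of 9 tested members, beside 0.781% of all 17275 tested genes, or 0.486% in the lower direction; as the members were chosen with this contrast known, nothing is read from the count. Gpc3 restrains body growth, binds Hedgehog proteins and is mutated in an overgrowth syndrome, Simpson-Golabi-Behmel. The gene (ENSMUSG00000055653) lies on chromosome X from 52272426 to 52613950, minus strand, mm10.

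Gpc3 had 2125, 2183 and 2037 counts in the control-labelled libraries 1 to 3, which is 88.9, 88.0 and 85.9 CPM. It had 1286, 1121 and 1171 counts in the cKO-labelled libraries 1 to 3, which is 50.3, 46.6 and 46.2 CPM. All 3 control-labelled libraries lay above all 3 cKO-labelled ones, and the gap between the groups was several times the spread within either. The log2 fold change was -0.88 ± 0.05 (SE), or a 1.83-fold higher level in control-labelled libraries. By size of fold change it ranked 5 among the 84 genes called lower, and 108 from the lowest over all 17275 tested genes. As Gpc3 was known to differ, nothing is read from these ranks. The authors' deposited table lists it at 0.89 with a standard error of 0.07 for cKO against control, opposite in sign to the value here. With the group labels in doubt, the direction of the Gpc3 difference by true genotype is in doubt too.

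Over the 17 alternative fits, which use the same libraries and so are no further evidence, the Gpc3 log2 fold change ran from -0.92 to -0.85. Without the libraries labelled control 2 and cKO 2, whose sex-linked genes go against their labels, it was -0.86 with a standard error of 0.07. Fold changes fell with exon length over all tested genes (Spearman correlation across genes -0.27, genes not being independent replicates). Gpc3 has 2690 bases of exon and the median tested gene 3922, and with the length trend removed the Gpc3 value was -0.92. The part of length in the Gpc3 difference was not tested. Gpc3 is X-linked. Xist, the RNA of the inactive X, had 17599, 13 and 5 counts in control-labelled libraries 1 to 3 and 15165, 14143 and 1 in cKO-labelled libraries 1 to 3. The Xist groups overlapped, and the part of X-chromosome number in the Gpc3 difference was not tested.

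**Figure D2:**
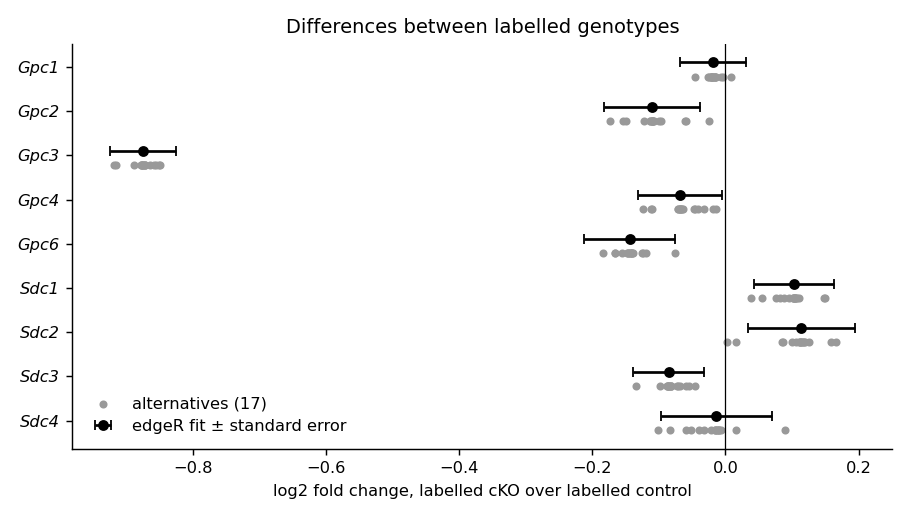
Log2 fold change of the 9 tested members, labelled cKO over labelled control; black points with bars are the edgeR fit and its standard error, grey points the 17 alternative fits. Gpc3 lies between -0.92 and -0.85 in every fit, and the other 8 members lie within 0.2 of zero.

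The other tested glypicans also had fold changes below zero, but none passed the threshold. Gpc6, which like Gpc4 is released by astrocytes and promotes synapse formation, had 42.3, 36.5 and 37.4 CPM in control-labelled libraries and 35.6, 34.1 and 35.4 CPM in cKO-labelled ones. These groups did not overlap, but the lowest control value lay less than 1 CPM above the highest cKO value. The log2 fold change was -0.14 ± 0.07 (SE), and -0.08 without the library labelled control 1. Gpc3 and Gpc6 were the 2 of 9 tested members without overlap, beside 20.1% of all tested genes in either direction and 9.30% in the lower one.

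Gpc2 was at 68.3, 57.9 and 57.4 CPM in control-labelled libraries and 61.5, 52.6 and 55.8 CPM in cKO-labelled ones, with overlap and a log2 fold change of -0.11 (standard error 0.07). That value rested on single libraries: it was -0.02 without control 1, -0.06 without cKO 2 and -0.17 without cKO 1. Its exons share 2376 bases with Gm43720 on the same strand, which had 20 counts over all libraries. Gpc4 was at 48.6, 48.2 and 44.0 CPM against 48.2, 42.5 and 43.5 CPM, also overlapping, with a log2 fold change of -0.07 (standard error 0.06) that ran from -0.12 without cKO 1 to -0.03 without cKO 2. Gpc1 showed the smallest difference of the tested glypicans. It was at 209, 203 and 204 CPM against 210.4, 202 and 196 CPM, a log2 fold change of -0.02 ± 0.05 (SE), and its sign turned in 1 of the 17 alternatives (0.01 without the library labelled cKO 3).

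The syndecans lay on both sides of zero, with log2 fold changes from -0.08 to 0.11. None of the 4 passed by edgeR, beside 0.781% of all tested genes, and 0 had an unadjusted p under 0.05, beside 16.5%. With 4 genes nothing is read from these counts. By DESeq2 and limma-voom 0 passed. Sdc3 was at 250.5, 254 and 244 CPM in control-labelled libraries and 251, 231 and 223 CPM in cKO-labelled ones, a log2 fold change of -0.08 (standard error 0.05) that ran from -0.13 without cKO 1 to -0.05 without cKO 3. The library labelled cKO 1 lay among the controls, so the groups overlapped.

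Sdc1 was at 49.3, 45.5 and 51.9 CPM against 54.5, 53.7 and 49.4 CPM, a log2 fold change of 0.10 (standard error 0.06) with overlap, and 0.05 without control 2. Sdc2 was at 21.4, 20.8 and 21.5 CPM against 21.6, 26.1 and 21.4 CPM. Its log2 fold change of 0.11 (standard error 0.08) rested on the library labelled cKO 2, without which it was 0.02. Sdc4 was at 20.8, 19.5 and 24.6 CPM against 21.6, 21.95 and 20.6 CPM, a log2 fold change of -0.01 (standard error 0.08) whose sign turned in 2 of the 17 alternatives (0.09 on omitting control 3 and 0.02 on omitting cKO 3). A miss of the threshold does not show equal levels. In simulated counts for this comparison, over 17275 genes, 84% of genes changed 1.5-fold and 92% of genes changed 2-fold were recovered, but only 42% at the smallest fold simulated, which was under 1.5-fold. The 8 other tested members differed by less than that smallest fold.

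Within the glypican family, the makeup of the transcripts differed between the labelled genotypes, most of all in Gpc3. As a share of the glypican sum in CPM per kilobase, Gpc3 was 28.9%, 29.8% and 29.7% in control-labelled libraries and 19.2%, 19.2% and 19.1% in cKO-labelled ones. The glypican sum was 110.5 ± 3.65 against 92.7 ± 4.27 CPM per kilobase (SD, n = 3 each). With Gpc3 left out it was 77.9 ± 3.13 against 74.9 ± 3.44 CPM per kilobase (SD, n = 3 each), and the groups overlapped. The syndecan sum was 69.0 ± 1.14 against 68.0 ± 3.28 CPM per kilobase (SD, n = 3 each), with Sdc3 making up 56.2% to 62.4% of it.

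**Figure D3:**
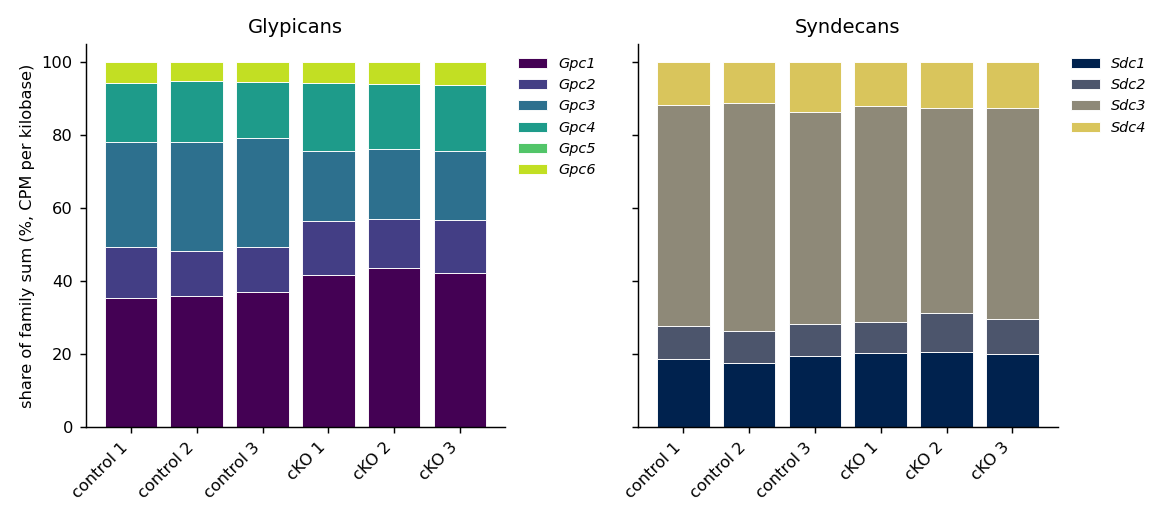
Share of each gene in the glypican sum (left) and syndecan sum (right), in percent of CPM per kilobase, for each library. The Gpc3 part is 28.9% to 29.8% in control-labelled libraries and 19.1% to 19.2% in cKO-labelled ones. In the syndecan sum the Sdc1 part is 17.6% to 19.4% against 20.1% to 20.5%, and the parts of the other syndecans overlap between groups.

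Gpc3 sits beside Gpc4 (52053021 to 52165252, minus strand) on chromosome X, the 2 genes being 107.2 kb apart, and Gpc5 sits beside Gpc6 on chromosome 14, 400.1 kb apart. The ratio of Gpc3 to Gpc4 in CPM per kilobase was 1.80, 1.80 and 1.93 in control-labelled libraries and 1.03, 1.08 and 1.05 in cKO-labelled ones. This ratio restates the known Gpc3 difference, and the part of location in it was not tested. Apart from Gpc3, 10 tested genes lie within 1 Mb of it, and none of these passed by edgeR. Of the 10, 1 had an unadjusted p under 0.05, beside 16.5% of all tested genes, and DESeq2 and limma-voom each called 0. That gene was Hprt, a purine salvage enzyme, with a log2 fold change of 0.20 (standard error 0.08, edgeR adjusted p 0.181), opposite in sign to Gpc3. Hs6st2, which adds 6-O-sulphate to heparan sulphate, was at 0.04 (standard error 0.09) and the chromatin gene Phf6 at 0.01 (standard error 0.05). These neighbours were looked at after the Gpc3 value was known, and with 10 genes nothing is read from their counts.

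**Figure D4:**
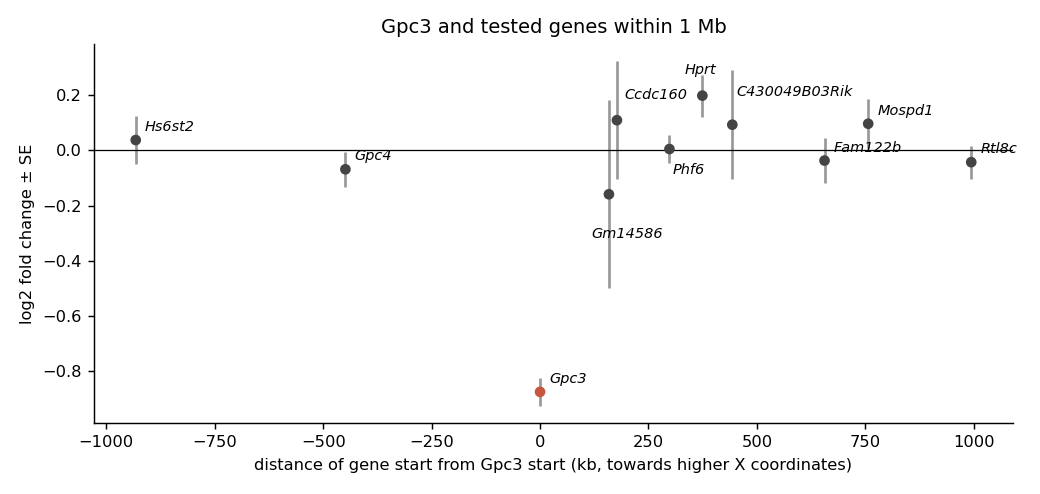
Log2 fold change (labelled cKO over labelled control, bars are standard errors) of the 11 tested genes within 1 Mb of Gpc3, against the distance of each gene's start from the Gpc3 start in kb. Gpc3, at -0.88, is far below its 10 neighbours, which lie between -0.16 and 0.20.

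No gene of 5 lists around heparan sulphate passed the threshold. Since so small a share of all tested genes passed, nothing is read from that count. The lists hold 12 genes of chain synthesis, 19 of sulphation and epimerisation, 16 of remodelling, release and breakdown, 7 other proteoglycans and 6 partners of the syndecan tail. Of these 60 genes, 55 were tested and 0 passed by edgeR, beside 0.781% of all tested genes; that share itself depended on single libraries, with 19 to 778 genes passing when 1 library was left out, against 135 with all. At an unadjusted p under 0.05 there were 14 of the 55 (25.5%, beside 16.5% of all tested genes), of which 4 had higher and 10 had lower values in cKO-labelled libraries. DESeq2 called 1, Agrn, and limma-voom 0. The median log2 fold change of the 55 was -0.04, beside 0.00 over all tested genes. Fold changes fell with exon length over all tested genes, and the part of length in these list values was not tested.

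The chain synthesis list lay near zero, with 11 tested genes at a median log2 fold change of 0.02. Extl3, Fam20b and Ext2 were its most abundant members. Extl3, which starts the heparan sulphate chain, was at 130.2 ± 0.25 CPM (SD, n = 3) in control-labelled libraries and 126 ± 1.39 CPM (SD, n = 3) in cKO-labelled ones, a log2 fold change of -0.05. Fam20b, a kinase of the linker sugar, was at 0.04 and Ext2, a chain polymerase subunit, at 0.02.

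Among 17 tested genes of sulphation and epimerisation the median was -0.06. Ndst1, the main enzyme that opens the chain to sulphation, was at 181 ± 9.45 against 167 ± 6.22 CPM (SD, n = 3 each), which is -0.12 on the log2 scale (edgeR adjusted p 0.230). Papss1, which makes the sulphate donor, was at 0.03, and the 6-O-sulphotransferase Hs6st1 at -0.10. The range of this list ran from -0.63 to 0.07, its lowest value being Hs3st3a1 at under 2 CPM in both groups (edgeR adjusted p 0.289).

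Of the genes that remodel, release and break down the chain, 15 were tested, with a median of -0.06. Sulf2, an extracellular sulphatase that edits the finished chain, was at 255 ± 12.1 against 237 ± 9.34 CPM (SD, n = 3 each), which is -0.11 on the log2 scale (edgeR adjusted p 0.323). The sheddase Adam10 was at 0.03. Notum, an enzyme that binds glypicans and inactivates Wnt proteins, was at 4.31, 3.06 and 3.79 CPM in control-labelled libraries and 5.01, 6.40 and 4.66 CPM in cKO-labelled ones. Its groups did not overlap, and its log2 fold change of 0.52 (standard error 0.17) missed the threshold (edgeR adjusted p 0.110). Furin, a convertase that can cleave glypicans, was at -0.15 (standard error 0.05, edgeR adjusted p 0.112). Notum, Furin and Hs3st3a1 were picked after their values were seen.

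The other heparan sulphate proteoglycans had the lowest list median, -0.13 over 7 tested genes. All 7 have more exon bases, 5533 to 14307, than the median tested gene at 3922. The part of length in this median was not tested. Agrn, the matrix proteoglycan agrin and the most abundant gene of the 5 lists, was at 721, 661 and 641 CPM in control-labelled libraries and 637, 557 and 587 CPM in cKO-labelled ones. The lowest control lay just above the highest cKO value. Its log2 fold change was -0.18 (standard error 0.06, edgeR adjusted p 0.112), and it passed by DESeq2 and with the library labelled control 3 or cKO 1 left out. With no filter on low counts and with a replicate block it passed as well. The testicans Spock2 and Spock1 were within 0.01 of zero.

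The partners of the syndecan tail had a median of -0.02 over 5 tested genes. Tiam1, an activator of Rac that binds syndecan tails, was at -0.17 (edgeR adjusted p 0.131), the scaffold Cask at -0.02 and the adaptor Gipc1 at 0.12 (edgeR adjusted p 0.147).

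**Figure D5:**
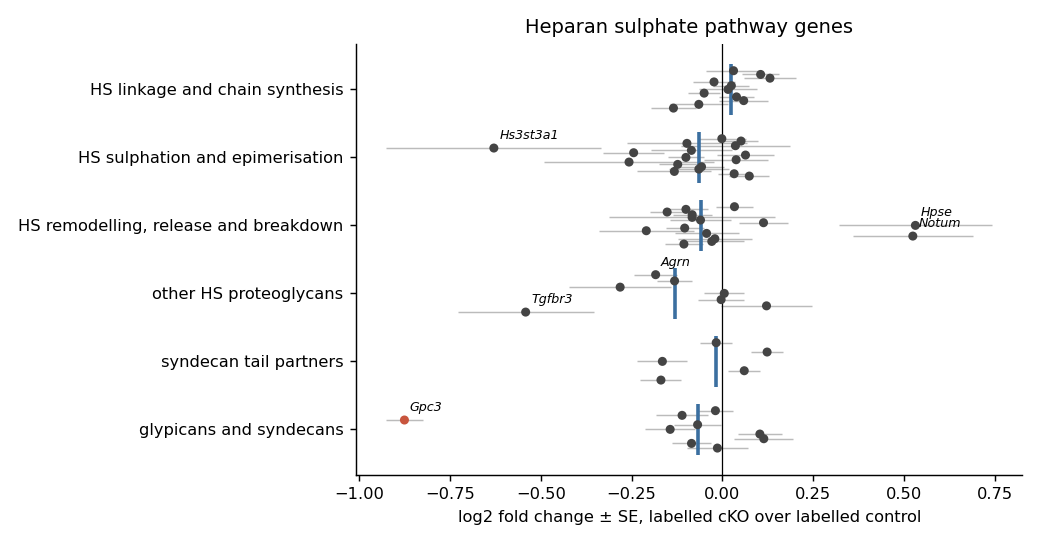
Log2 fold change (labelled cKO over labelled control, bars are standard errors) of 55 tested genes in the 5 heparan sulphate (HS) and syndecan partner lists and of the 9 tested members; the blue line is each list's median, and red marks a gene past the threshold. Gpc3 is the 1 red point, and no gene of the 5 lists passed.

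By likeness to Gpc3 over the 6 libraries (Pearson r of log2 CPM, 11686 genes with a mean of at least 5 CPM), the nearest patterns were those of Gm28528, Cacna1i, Zfp169, Axin2 and Zfp697, with r from 0.990 to 0.996. The most opposite were Lins1, Spsb3, Chtop, Vmp1 and Tbx20, with r from -0.995 to -0.991. These r values rest on the gap between 2 groups of 3 libraries and are given as a description. They do not measure size: Cacna1i, a T-type calcium channel subunit, had a log2 fold change of -5.12 and Zfp169 one of -0.19 (standard error 0.07). Axin2, a feedback inhibitor and target of Wnt signalling, was at -0.33 (standard error 0.07). Among the members, Gpc6 had the highest r with Gpc3 (0.74) and Sdc1 the lowest (-0.57).

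Markers of cell types next to the retina were read beside Gpc3, since glypicans and syndecans are also made outside neural retina. The 11 periocular mesenchyme and pericyte markers summed to 69.5, 123 and 119 CPM in control-labelled libraries and 150.2, 102 and 176 CPM in cKO-labelled ones, so the groups overlapped. Of the 9 tested, 5 had fold changes below zero and 4 above, and 0 passed by edgeR. The 2 most abundant, the collagen genes Col1a1 and Col1a2, averaged 37.6 and 22.3 CPM in control-labelled libraries and 68.3 and 34.7 CPM in cKO-labelled ones, with overlap (log2 fold changes 0.86 and 0.64, edgeR adjusted p 0.543 and 0.408). Pdgfra and Pdgfrb were the 2 of the 9 tested without overlap, beside 20.1% of all tested genes in either direction and 9.30% in the lower one. With 9 genes nothing is read from that count. Their log2 fold changes of -0.43 and -0.18 missed the threshold (edgeR adjusted p 0.171 and 0.243). Twist1, Foxc2 and Lum were at or below 0.783 CPM in every library. The 8 lens markers summed to 53.6, 219 and 799 CPM against 49.6, 15.2 and 218 CPM, with overlap. All 7 tested lens markers had fold changes below zero, and 0 passed by edgeR. The 8 pigment epithelium markers summed to 65.9 to 101 against 40.2 to 98.2 CPM, with overlap. Of the 7 tested, 6 had fold changes below zero and 1 above.

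The 6 endothelial markers summed to 336, 354 and 328 CPM in control-labelled libraries and 298, 297 and 306 CPM in cKO-labelled ones, the 1 marker sum of these that moved with Gpc3 without overlap. Most of that sum was Kdr (311 to 335 against 283 to 291 CPM, edgeR adjusted p 0.091), which retinal progenitors also express. Of the 4 tested endothelial markers, 2 had fold changes below zero and 2 above. The 2 above were Pecam1 and Cdh5, at log2 fold changes of 0.08 and 0.20 (standard errors 0.46 and 0.46). Both were at or below 1.135 CPM in every library. Cldn5 was at 13.9 to 16.8 against 12.8 to 13.7 CPM, also lower without overlap in cKO-labelled libraries (edgeR adjusted p 0.266). Microglial markers summed to 15.6 to 19.5 against 13.8 to 16.7 CPM, with overlap, and all 4 tested had fold changes below zero. Optic nerve glia and astrocyte markers summed to 11.1 to 14.02 against 6.90 to 12.8 CPM (1 of 3 tested below zero, 2 above). Skeletal muscle markers summed to 5.94 to 24.4 against 5.45 to 9.75 CPM (3 of 4 tested below zero, 1 above). The 6 retinal neuron markers summed to 2773, 2718 and 2856 CPM against 3092, 3146 and 2924 CPM, higher without overlap in cKO-labelled libraries. The largest part of that sum was Tubb3, at 1282 to 1344 against 1363 to 1494 CPM. Of the 6, 5 had fold changes above zero and 1, Elavl3, below (log2 fold change -0.08, standard error 0.05). Atoh7 alone of them passed the threshold, beside 0.781% of all tested genes, and with 6 genes nothing is read from that count. The part of any of these cells in the Gpc3 difference was not tested.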

How the data were processed

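Members and gene lists were chosen with earlier results of these data known. What the authors deposited, per the file headers, is a table of raw whole-number read counts. The submitters' processing notes list DESeq2 1.32.0, featureCounts 1.5.1, STAR 2.7.6a, cutadapt 2.8 and build mm10. Whether strand was used in counting is not given in the sources used here, which leaves genes with overlapping or antisense partners uncertain. The authors' deposited comparison table holds a mean normalized count (a signal value), log2 fold changes, a test statistic (a score) and p-values, per the file headers.

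Columns were matched to samples by their descriptions. Genes kept by edgeR's filterByExpr (17275) were fitted in edgeR 4.0.16 (R 4.3.3) with TMM, genotype alone, robust quasi-likelihood and Benjamini-Hochberg adjustment at 0.05. Standard errors (SE) were computed as the fold change divided by the root of F. CPM use TMM-scaled library sizes, and exon lengths and positions come from GENCODE M21, which held 55227 of 55487 genes. Alternatives were RLE and upper quartile scaling, other filters, no robust estimation, DESeq2 1.42.0, limma-voom (limma 3.58.1), labelled sex, a replicate block, removal of the exon length trend (lowess span 0.3), and leaving out libraries. Libraries are separate animals per the labels; no 2 of a group were duplicates, since chi-square divided by its degrees of freedom was 7.39 to 12.5 over genes with 50 or more counts in both together.

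On counts simulated for 3 libraries labelled cKO against 3 labelled control, 19 of 177 calls were false. All 10 members were named; pathway genes were named if past the threshold, or else the 3 with the highest CPM per list, as were the 5 genes most and least like Gpc3. Single values of 3 listed genes are not reported here; counts, medians and sums over their lists include them. Promoter windows come from RefSeq (GRCm38.p6).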

Additional observations from a re-analysis of the deposited data

How the results depend on the processing

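Of the glypicans and syndecans, 1 passed in the main fit and in each of the 17 alternatives, and it was Gpc3 each time; since Gpc3 was known to differ in these libraries, that is no further evidence. The number of all genes past the threshold was 135. It was 742 with no filter on low counts, 75 with a minimum mean of 1 CPM, 10 without robust estimation, 514 with DESeq2, 38 with the exon length trend removed and 9 on omitting control 2 and cKO 2, whose sex-linked genes contradict their labels; the cause was not tested. With 1 library left out it ran from 19 to 778 (34 on omitting control 1, 21 control 2, 778 control 3, 361 cKO 1, 19 cKO 2 and 27 cKO 3). The count of genes in the 5 heparan sulphate and syndecan partner lists, 0 in the main fit, was 4 with no filter (Agrn, Hs3st4, Hspg2 and Notum), 1 with DESeq2 (Agrn), and 0 to 2 with 1 library left out (Agrn and Tiam1 without control 3, Agrn and Furin without cKO 1). With the replicate number as a block, 1065 genes passed in all and 5 of those lists (Agrn, Furin, Hs3st4, Hspg2 and Tiam1). The labels name nothing that libraries with the same number share beyond it. The correlations of such libraries' deviations from the group means were 0.461, -0.323 and 0.605. Not every library correlated best with its own number, and an unlabelled link between some libraries was not tested. No scaling moved the median of all genes by over 0.1 on the log2 scale. With 3 animals per group, small differences are the ones the depth and spread limit most.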
